A study of Mus musculus with 21 samples.

Results

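The comparison concerned B-cell-depleted Hepa1-6 tumours given anti-PD1 plus anti-CTLA4 (the combination, 5 libraries) or isotype antibody (6 libraries). The 11 libraries were chosen by the sample titles and made up 11 of the 21 libraries of the series. Hepa1-6 is a mouse hepatoma cell line, and the tumours were grown in C57BL/6 mice. Messenger RNA was sequenced from frozen tumour tissue, and the other 10 libraries came from WT tumours given the same antibodies (5 combination, 5 isotype). The labels do not state how B cells were depleted, the age or sex of the mice, the tumour site, or the doses and times of the antibodies. Nothing in the labels ties a library to an animal, so the p-values measure the spread between samples, which may be technical. All 11 are labelled as depleted, so the comparison is between antibodies among tumours of that label.

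PD-1 (Pdcd1) and CTLA-4 (Ctla4) are inhibitory receptors on T cells, and antibodies against them release T cells from inhibition. CD8 T cells and NK cells kill target cells with perforin (Prf1), which opens membranes, and granzymes, which are proteases delivered through them. Activated lymphocytes also release interferon gamma (Ifng), which induces antigen presentation, guanylate-binding proteins and chemokines in nearby cells. Macrophages that take up lipid and debris express a programme marked by Trem2, Fabp5 and lysosomal genes. In bulk tissue, more cells of a type and more RNA per cell cannot be told apart.

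The label of depletion was checked first. Summed Ms4a1, Cd79a and Cd79b, which code for B-cell surface proteins, were 0.188 to 2.29 CPM (a gene's reads scaled to the library total) in the isotype arm and 0.945, 1.16, 0.67, 1.46 and 3.43 CPM in combination replicates 1 to 5. WT tumours had 1.40 to 3.04 CPM under isotype and 3.33 to 14.2 CPM under the combination, so the depleted and WT ranges overlapped under isotype, and under the combination only replicate 5 of the depleted arm reached the WT range. Summed immunoglobulin constant genes were 243 and 262 CPM in isotype replicates 3 and 5, above the median of 231 CPM over all 10 WT libraries, and at most 46.4 CPM in the other 9 depleted libraries. Within the treatments, the WT median was 50.9 CPM under isotype, while the lowest WT combination library was at 82.6 CPM, above all 5 depleted combination libraries. Between the arms, Ms4a1, Cd79a, Ighm and Igkc did not differ past the threshold (edgeR adjusted p 0.22 to 0.934). Of 10 B-cell genes tested and of 13 plasma-cell and immunoglobulin genes tested, 0 were called, with medians of 0.37 and -0.81 log2 units. The B-cell median was 0.15 without combination replicate 5 and -0.02 with the mean log2 CPM of the Y-linked genes as a covariate. The plasma-cell median was 0.00 without isotype replicate 3 and up to 0.38 in other settings. Combination replicate 5 had the highest sum of the B-cell list without Pax5 and Ebf1 among the depleted libraries, 39.3 CPM, above the median of 35.3 CPM over all 10 WT libraries but below the WT combination range of 41.1 to 97.9 CPM. Isotype replicates 3 and 5 and combination replicate 5, each above 1 of these pooled WT medians, went against their label in that measure. The comparison of the arms called 65 genes with these 3 libraries and 397 without them, 63 of the 65 among them. Summed T-cell genes were 452 and 402 CPM in isotype replicates 3 and 5, and 173 to 341 CPM in the other isotype libraries. Leaving out isotype replicate 3, isotype replicate 5 or combination replicate 5 alone gave 176, 163 and 18 calls. The part of B-cell content in the count of 397 was not tested, as these libraries differ in other transcripts too.

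Library totals were 10.92 to 19.17 M counts under isotype and 9.52 to 14.01 M under the combination, a difference in means of -3.63 M (exact two-sided permutation test, p = 0.0411 over 462 splits). At the lowest total, a gene at 1 CPM rests on about 10 reads. Several libraries held transcripts of other tissue, as the bar plots of library composition show. Skeletal muscle genes summed to 349 and 152 CPM in isotype replicates 3 and 4 and to at most 76.1 CPM elsewhere. Adipocyte genes summed to 807 CPM in combination replicate 4 and to at most 144 CPM elsewhere. Combination replicate 5 stood apart with 37681 CPM of fibroblast and matrix genes (at most 17294 elsewhere), 1213 CPM of neutrophil genes (at most 617) and 667 CPM of hepatocyte genes (at least 1350). Xist, made by cells with an inactive X chromosome, was at 2809 to 3899 CPM under isotype and 1079 to 2985 CPM under the combination, while summed Y-linked genes were at 46.3 to 119 and 85.9 to 169 CPM. Both kinds of transcript were present in all 11 libraries, the ranges of the arms overlapped, and 0 of the 4 Y-linked genes were called. Their part in the results was not tested beyond a fit with the mean log2 CPM of the Y-linked genes as a covariate. That fit called 30 genes, 25 of them among the 65. In WT tumours the summed Y-linked genes were at 47.6 to 79.2 CPM under isotype and 135 to 250 CPM under the combination. As their level moved with the antibodies there, a fit with this covariate may also remove part of the antibody response.

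**Figure D1:**
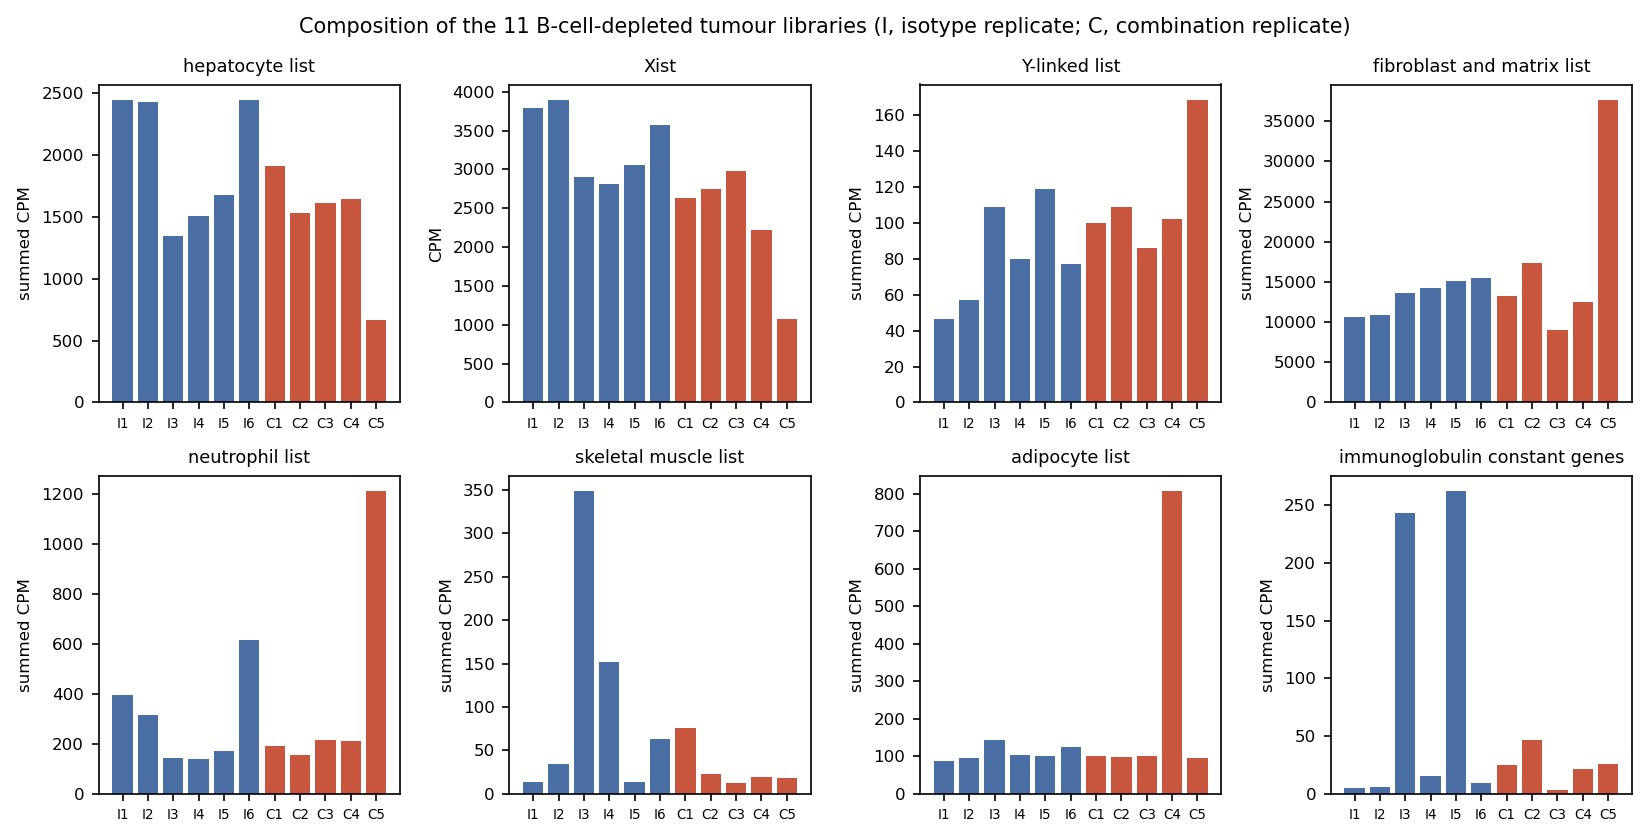
Bars give the summed CPM of 7 gene groups and the CPM of Xist in each of the 11 B-cell-depleted libraries, blue for isotype replicates I1 to I6 and red for combination replicates C1 to C5. C5 had 37681 CPM of fibroblast and matrix genes and 169 CPM of Y-linked genes, C4 had 807 CPM of adipocyte genes, and I3 had 349 CPM of skeletal muscle genes.

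In the B-cell-depleted tumours the combination raised transcripts of CD8 T cells and of cytotoxic effectors, and some macrophage genes were also called. Of 19061 genes tested, 58 were called higher (0.304%) and 7 lower (0.0367%) at an edgeR adjusted p under 0.05, 0.341% in all. The calls in the higher direction had a median log2 fold change of 1.31 and included 43 genes at 2-fold or more. The arms did not overlap for 57 of the 65 called genes, and for 2.01% of all genes tested (1.14% higher, 0.876% lower). At an unadjusted p under 0.05 there were 2734 genes, and the median log2 fold change over all genes tested was 0.02. The number of calls rested on single libraries: it was 11 without isotype replicate 2, 17 without isotype replicate 1, 18 without combination replicate 5 and 27 without isotype replicate 6, and it was 176 and 163 without isotype replicates 3 and 5. It was 30 without combination replicate 1, 38 without combination replicate 3 and 43 without isotype replicate 4. The variance estimate also drew on the WT libraries; a fit of the 11 libraries alone called 6 genes, 5 of them among the 65.

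Prf1 (chr10:61297833-61304680, plus strand, GRCm38) had the smallest p. It measured 53.2, 38.7, 48.1, 41.9 and 47.5 CPM in combination replicates 1 to 5, against 8.45, 14.9 and 24 CPM (lowest, median and highest) under isotype. Every combination library lay above every isotype library, and the log2 fold change was 1.62 ± 0.19 (SE), 3.07-fold (edgeR adjusted p = 0.00117). It remained past the threshold in all 11 fits that left out a library (highest edgeR adjusted p 0.00746) and in each of the 11 other settings. Only Tcrg-C2 did the same.

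Gzmb, the granzyme that activates caspases in the target cell, measured 28.1, 21.7, 30.8, 25.1 and 28.3 CPM under the combination and 5.53, 9.89 and 16.3 CPM under isotype. The arms did not overlap, and the log2 fold change was 1.35 ± 0.23 (edgeR adjusted p = 0.0137). Nkg7, a granule membrane protein of cytotoxic cells, was at 49.2, 49.2, 44.1, 47.4 and 47.8 CPM against 8.95, 17.9 and 29.5 CPM, a log2 fold change of 1.44 ± 0.24 (edgeR adjusted p = 0.0137). Its 5 combination values were close together and lay above every isotype value. Leaving out isotype replicate 2 ended both calls (edgeR adjusted p = 0.0538 for Gzmb and 0.0501 for Nkg7), and the Y-linked covariate ended that of Gzmb (0.052).

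The promoters of Prf1 and Gzmb are shown because these genes code for cytotoxic granule proteins and were called. They are the 250 bases before the start in RefSeq (GRCm38.p6), 5′ to 3′ on the strand of the gene; capitals mark matches to TGTGGT, the core bound by RUNX factors (ACCACA where the match lies on the other strand), and to TGANTCA, the AP-1 motif. Prf1 is at chr10:61297586-61297835 on the plus strand and Gzmb at chr14:56262335-56262584 on the minus strand.
Prf1: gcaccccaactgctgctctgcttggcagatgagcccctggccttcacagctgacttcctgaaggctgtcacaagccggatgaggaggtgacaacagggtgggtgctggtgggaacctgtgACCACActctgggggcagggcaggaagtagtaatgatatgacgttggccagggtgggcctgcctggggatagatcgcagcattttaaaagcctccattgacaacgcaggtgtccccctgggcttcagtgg
Gzmb: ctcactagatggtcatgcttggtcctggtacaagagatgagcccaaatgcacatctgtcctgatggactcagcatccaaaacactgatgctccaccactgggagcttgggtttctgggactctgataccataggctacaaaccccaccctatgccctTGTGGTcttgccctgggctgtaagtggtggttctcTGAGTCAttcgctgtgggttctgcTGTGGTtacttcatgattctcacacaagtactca
The Prf1 promoter held 1 RUNX core, 130 bases before the start, and the Gzmb promoter held 2, at 93 and 34 bases, with an AP-1 match at 58 bases between them. Both strands were searched. Of the genes called higher, 36 had promoters in the RefSeq table (47 promoters in all), and 23.4% of those promoters held TGTGGT, against 11.4% of 15126 promoters of tested genes and 14% of all 32851. For TGANTCA the shares were 10.6%, 5.1% and 6.75%. The T-box motif AGGTGTGA was in 4.26%, 0.859% and 1.12%, the STAT motif TTCNNNGAA in 8.51%, 6.13% and 7.02%, and the IRF motif in 0%, 2.76% and 2.98%. Of the 47 promoters, 11 held TGTGGT, 5 TGANTCA, 4 the STAT motif and 2 the T-box motif, so these shares rest on few matches. The promoters of Cd8a and Pdcd1 held none of the 5 motifs in this window. A match is a run of letters and not a measured site, and a gene with several promoters counts several times.

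Of 20 cytotoxic effector genes tested, 7 were called higher and 0 lower, 19 of 20 estimates were positive and the list median was 1.35 (0.02 over all genes). Besides Prf1, Gzmb and Nkg7 the calls were Ifng (log2 fold change 1.51 ± 0.31), the death ligand Fasl (1.39 ± 0.27), the cystatin Cst7 (1.14 ± 0.20) and the granzyme Gzmf (2.20 ± 0.48). Gzmf lies in a cluster of similar granzyme genes whose reads can be shared, and Ifng overlaps Gm49751 on the same strand, which was also called. Ifng was at 5.78, 5.47, 3.72, 3.82 and 5.28 CPM under the combination and 0.522, 1.62 and 2.67 CPM under isotype, with no overlap. The call of Cst7 was lost without isotype replicate 1 (0.057), isotype replicate 2 (0.0541) or combination replicate 5 (0.0559). Those of Fasl and Ifng were lost without isotype replicates 1, 2 or 6 or combination replicates 1, 2 or 5 (0.0512 to 0.121), Fasl also without combination replicate 3 (0.0567), and Gzmf without any library but combination replicate 4 (0.054 to 0.12). The list had 1 call without isotype replicate 2, 3 without isotype replicate 1, 3 without combination replicate 5, 4 without isotype replicate 6 and 4 without combination replicate 1. The fit of the 11 libraries alone called 1, Prf1. Rab27a, which docks lytic granules at the membrane, rose by 0.98 ± 0.19 (edgeR adjusted p = 0.0312) but not without isotype replicates 1, 2, 4 or 6 or combination replicates 1, 4 or 5 (edgeR adjusted p 0.0531 to 0.0989). Combination replicate 5 had the highest summed level of the cytotoxic list, 858 CPM, against 361 to 426 CPM in the other combination libraries and 194 to 253 CPM under isotype.

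**Figure D2:**
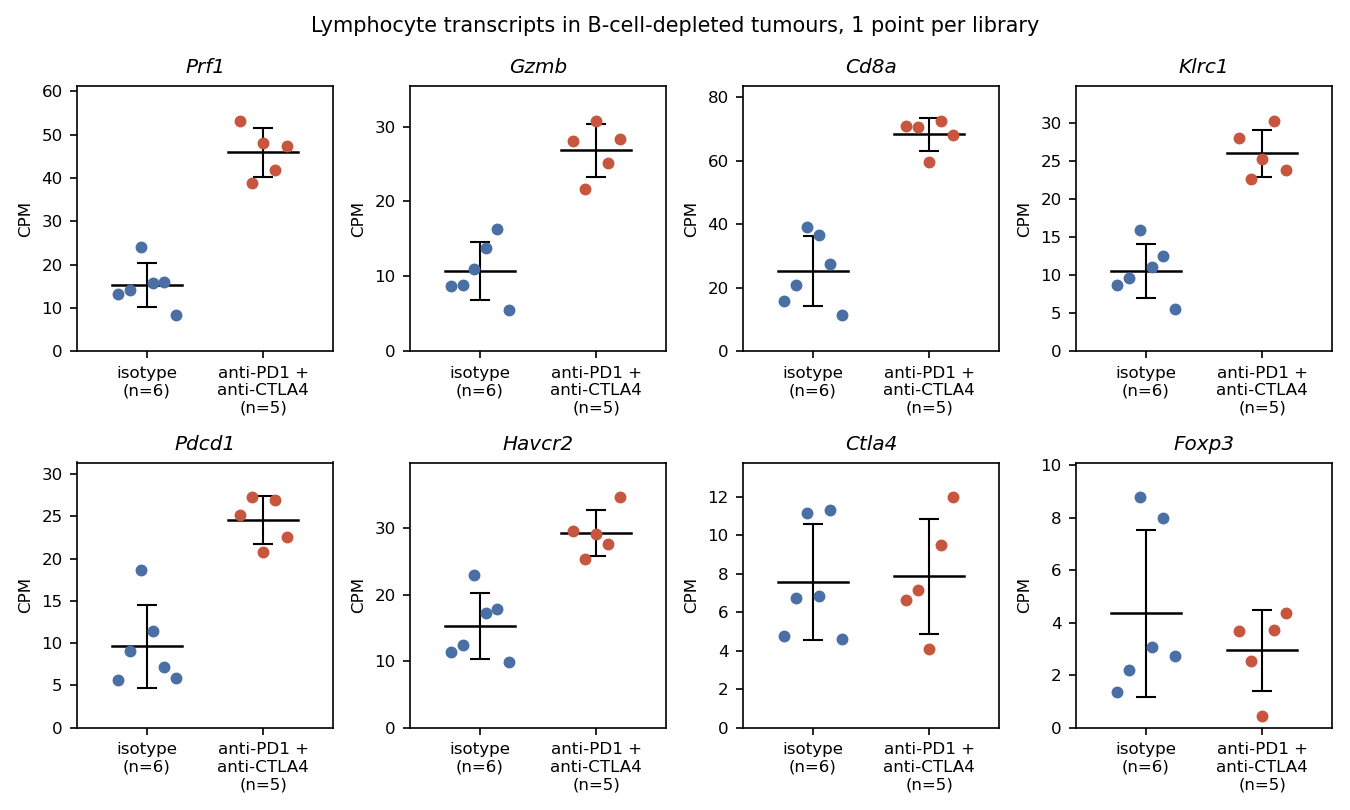
Each point is the CPM of a gene in 1 library, blue for isotype and red for the combination, with the arm mean as a line and the SD as a bar. For Prf1, Gzmb, Cd8a, Klrc1, Pdcd1 and Havcr2 the 5 combination points lie above all 6 isotype points, while for Ctla4 and Foxp3 the arms overlap.

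Transcripts of CD8 T cells were also higher. Cd8a, a chain of the CD8 coreceptor, was at 71.1, 70.6, 59.6, 72.7 and 68.3 CPM under the combination and at 11.5, 24.3 and 39.0 CPM under isotype. The lowest combination value lay well above the highest isotype value, and the log2 fold change was 1.46 ± 0.24 (edgeR adjusted p = 0.0134), which remained past the threshold without any single library. Cd8b1, the other CD8 chain, gave 1.54 ± 0.28 (edgeR adjusted p = 0.0181), lost without isotype replicate 1 (0.0618), isotype replicate 2 (0.0565) or combination replicate 5 (0.0559). Cd4, the coreceptor of helper T cells, was at 16.3, 22.6, 7.67, 13.9 and 26.8 CPM against 4.38, 9.94 and 24.4 CPM, with overlapping arms and a log2 fold change of 0.54 ± 0.45 (edgeR adjusted p = 0.603). Whether Cd8a and Cd4 differed from each other in their change was not tested.

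All 22 T-cell genes tested had positive estimates, with a median of 0.96; 5 were called higher and 0 lower. The calls beside the CD8 chains included the receptor signalling chain Cd3g (1.22 ± 0.25) and the receptor constant gene Trac (1.11 ± 0.24). Trac was lost without any library but isotype replicates 3 and 5 (edgeR adjusted p 0.0531 to 0.124), and Cd3g without isotype replicates 1, 2 or 6 or combination replicates 1, 2, 4 or 5 (0.0525 to 0.116). Cd8a was the only call of the list without isotype replicate 1, isotype replicate 2 or combination replicate 5. Without the 3 libraries that held muscle or adipocyte transcripts, 11 were called, and the fit of the 11 libraries alone called 0. The summed list was at 173 and 176 CPM in isotype replicates 6 and 1, 215 CPM in isotype replicate 2, and 341 to 452 CPM in isotype replicates 3 to 5, against 462 to 645 CPM under the combination. The isotype arm was therefore spread over a wider range than the combination arm. Themis, a T-cell receptor signalling protein, rose by 1.33 ± 0.23 (edgeR adjusted p = 0.0137; 0.0538 without isotype replicate 2).

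Several receptor gene segments rose. Tcrg-C2, a constant gene of the gamma chain of the gamma-delta T-cell receptor, was at 11.1, 11.2, 7.81, 7.47 and 4.71 CPM under the combination and at 1.57, 2.23 and 3.08 CPM under isotype. The arms did not overlap, and the log2 fold change was 1.87 ± 0.27 (edgeR adjusted p = 0.00743, at most 0.0327 without any library). Its sequence is close to that of other gamma constant genes, so the assignment of reads among them is uncertain. The variable segment Trbv3 was at 3.99, 2.16, 1.41, 5.36 and 3.36 CPM against 0, 0.18 and 0.712 CPM (edgeR adjusted p = 0.0134). Trav8d-2 was at 1.05, 2.46, 0.819, 0.325 and 0.857 CPM, while under isotype its median was 0 and its highest value 0.0593 CPM (edgeR adjusted p = 0.0134); near-identical alpha segments make its level uncertain. Both segments remained called without any single library, and these segments were named after their values were seen. In the fit of the 11 libraries alone Trbv3 was not called (edgeR adjusted p = 0.0626). Trav8d-2 had too few reads to be tested in that fit or after thinning all libraries to the lowest total.

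Among 18 NK receptor genes, 2 were called higher, 0 lower, and the median was 0.47. Of the estimates, 10 were positive and 8 negative, the lowest at -1.36. That median was 0.26 to 0.81 when 1 library was left out and 0.07 with the Y-linked covariate. The calls code for the paired chains of an inhibitory receptor found on NK cells and activated CD8 T cells, Klrc1 (NKG2A) and Klrd1 (CD94). Klrc1 was at 28.0, 22.6, 25.3, 30.4 and 23.8 CPM against 5.58, 10.4 and 15.9 CPM, without overlap (log2 fold change 1.32 ± 0.20, edgeR adjusted p = 0.0134, past the threshold without any single library). Klrd1 gave 1.26 ± 0.23 (edgeR adjusted p = 0.0193) and was lost without isotype replicates 1 or 2 or combination replicates 1 or 5 (0.0512 to 0.0699). Ncr1, a receptor that marks NK cells, had an estimate of -0.46 (edgeR adjusted p = 0.795).

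Of 16 checkpoint and costimulatory receptors, 2 were called higher and 0 lower, and the median was 0.56. Pdcd1, the target of one of the antibodies, was at 25.1, 27.3, 20.8, 27.0 and 22.6 CPM under the combination and at 5.63, 8.11 and 18.6 CPM under isotype. The lowest combination library lay above the highest isotype library, and the log2 fold change was 1.38 ± 0.24 (edgeR adjusted p = 0.0137; 0.0538 without isotype replicate 2). Havcr2, which codes for the inhibitory receptor TIM-3 on T cells and myeloid cells, was at 29.6, 25.3, 29.2, 27.6 and 34.7 CPM against 9.91, 14.8 and 23 CPM (0.96 ± 0.17, edgeR adjusted p = 0.0148). Its call was lost without isotype replicate 1 (0.0509), isotype replicate 2 (0.0541) or combination replicate 5 (0.0532).

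Ctla4, the target of the other antibody, was at 6.62, 7.16, 4.09, 9.50 and 12 CPM under the combination and at 4.59, 6.79 and 11.3 CPM under isotype. The arms covered the same range, with a log2 fold change of 0.10 ± 0.27 (edgeR adjusted p = 0.896). Foxp3, the transcription factor of regulatory T cells, was at 3.68, 2.54, 0.447, 3.74 and 4.36 CPM against 1.38, 2.89 and 8.79 CPM (-0.52 ± 0.50, edgeR adjusted p = 0.654). The 8 regulatory T-cell genes had 0 calls and a median of 0.07, and the sign of that median changed in several settings. In WT tumours the same antibodies gave a Ctla4 log2 fold change of 1.19 ± 0.28; the difference between the backgrounds was -1.10 ± 0.39 and did not pass (edgeR adjusted p = 0.117). Among 17 T-cell transcription factors there were 0 calls and a median of 0.39, which was 0.05 without combination replicate 5 and 0.06 with the Y-linked covariate. The smallest p-values belonged to Nr4a2 (0.80 ± 0.19, edgeR adjusted p = 0.0706) and Ikzf3 (1.16 ± 0.29, edgeR adjusted p = 0.0862).

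**Figure D3:**
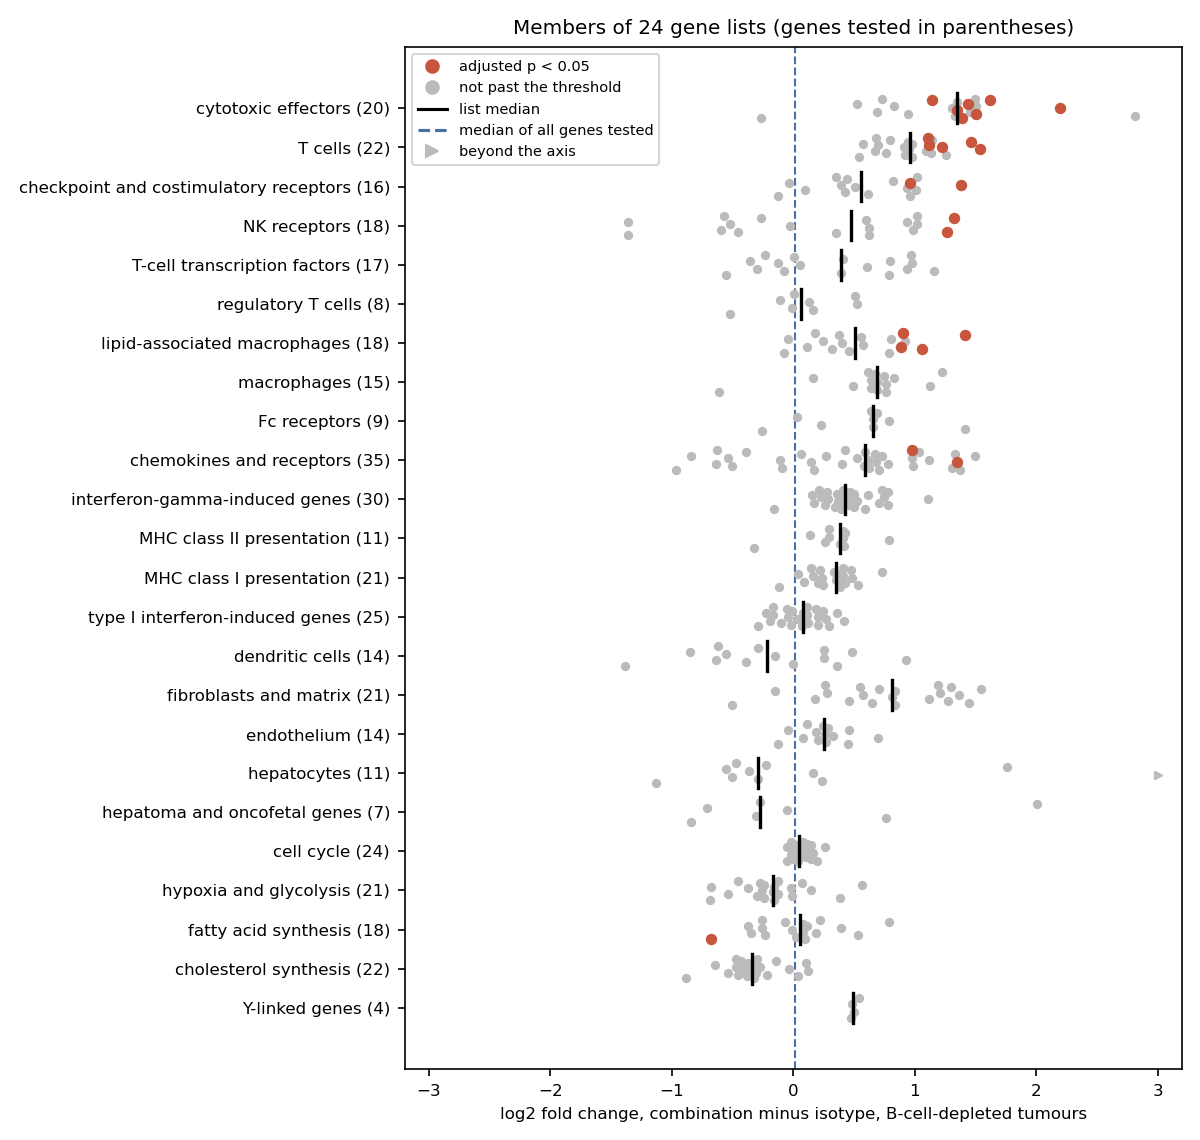
Each point is the log2 fold change of a gene between combination and isotype in B-cell-depleted tumours, for 24 lists, red where the edgeR adjusted p is under 0.05; black ticks are list medians and the dashed line is the median of all genes, 0.02. The cytotoxic effectors have the median farthest to the right, 1.35, and among these lists the cholesterol synthesis genes the one farthest to the left, -0.34.

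Interferon targets did not pass the test. Of 30 interferon-gamma-induced genes, 29 had positive estimates and 0 were called, with a median of 0.43. Ido1, which degrades tryptophan, was at 61.0, 55.5, 62.3, 99.0 and 62.0 CPM against 12.4, 32.2 and 45.0 CPM; the arms did not overlap, yet the log2 fold change of 1.11 ± 0.34 had an edgeR adjusted p of 0.153. Cxcl10, a chemokine that attracts T cells, gave 0.73 ± 0.18 (edgeR adjusted p = 0.0786), and Cd274, which codes for PD-L1, 0.53 ± 0.21 (0.252). The 21 genes of MHC class I presentation had a median of 0.35 and the 11 of class II one of 0.38, with 0 calls in each; H2-K1 was at 0.73 ± 0.27 (edgeR adjusted p = 0.219) and Cd74 at 0.41 ± 0.26 (0.48). The 25 type I interferon-induced genes had a median of 0.08 and 0 calls. Isotype replicate 6 had the lowest summed interferon-gamma list, 2064 CPM, against 4141 to 6253 CPM in the other isotype libraries and 5245 to 6535 CPM under the combination.

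Among 35 chemokines and receptors tested, 2 were called higher and 0 lower. Cxcr6, a homing receptor of tissue T cells, rose by 1.35 ± 0.24 (edgeR adjusted p = 0.0176) and was lost without isotype replicate 1 (0.0618), isotype replicate 2 (0.0565) or combination replicate 5 (0.0532). Ccl6, a chemokine made by myeloid cells, rose by 0.98 ± 0.21 with overlapping arms (edgeR adjusted p = 0.0419), lost without isotype replicates 1, 2, 4 or 6 or combination replicates 1, 3 or 5 (0.084 to 0.138). The list median of 0.59 fell to 0.22 without combination replicate 5, and was -0.04 with the Y-linked level as a covariate.

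Some macrophage genes were also called. Of 18 genes of the lipid-associated macrophage list, 4 were called higher and 0 lower, with a median of 0.51. Atp6v0d2, a subunit of the proton pump that acidifies lysosomes, was at 42.3, 35.3, 44.5, 38.9 and 36.1 CPM under the combination and at 16.6, 22.7 and 24.6 CPM under isotype. The arms did not overlap, and the log2 fold change was 0.90 ± 0.15 (edgeR adjusted p = 0.0137), with an edgeR adjusted p of at most 0.0492 without any library. Trem2, a lipid receptor, was at 17.5, 17.4, 15.0, 12.4 and 27.8 CPM against 3.50, 7.11 and 10.1 CPM (1.41 ± 0.30, edgeR adjusted p = 0.0422). Fabp5, which carries fatty acids, gave 1.06 ± 0.20 (edgeR adjusted p = 0.0279), and the lysosomal protease Ctsb 0.89 ± 0.19 (0.0419). With the Y-linked covariate these calls were lost, at 0.92 for Trem2 (edgeR adjusted p = 0.111), 0.71 for Fabp5 (0.112) and 0.52 for Ctsb (0.0988), and the list median was 0.33. Combination replicate 5 had the highest value of Trem2, Fabp5 and Ctsb. Atp6v0d2 alone of the list remained called without isotype replicate 1, isotype replicate 2 or combination replicate 5, and in the fit of the 11 libraries alone. At least 1 of Trem2, Fabp5 and Ctsb was also lost without each of isotype replicates 4 and 6 and combination replicates 1 to 4 (edgeR adjusted p 0.0539 to 0.114). Without the 3 libraries that held muscle or adipocyte transcripts 2 of the list were called.

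Genes of haem and iron handling were also among the calls, chosen here after their values were seen. Hmox1, which breaks down haem, was at 177, 129, 202, 143 and 270 CPM under the combination and at 40.7, 79.3 and 127 CPM under isotype. The lowest combination value lay just above the highest isotype value (1.16 ± 0.24, edgeR adjusted p = 0.0407). The haem transporter Slc48a1 rose by 0.51 ± 0.10 with overlapping arms (edgeR adjusted p = 0.0392). The ferritin light chain Ftl1, which has many processed copies in the genome, rose by 0.52 ± 0.11 (edgeR adjusted p = 0.0427). The arginase gene Arg1, which is outside haem and iron handling, rose by 1.22 ± 0.25 with overlapping arms (edgeR adjusted p = 0.0407). Each of these 4 calls was lost without any of isotype replicates 1, 2, 4 or 6 or combination replicates 1, 3 or 5 (edgeR adjusted p 0.0619 to 0.138). Slc48a1 and Ftl1 were also lost without combination replicate 2 (0.0755 and 0.0688), and Ftl1 without combination replicate 4 (0.056). With the Y-linked covariate all 4 calls were lost (edgeR adjusted p 0.126 to 0.158). The general macrophage list, 15 genes such as Csf1r and C1qa, had 14 positive estimates, a median of 0.69 and 0 calls; its summed level was 993 to 2324 CPM under isotype, 2055 to 2456 CPM in combination replicates 1 to 4 and 4156 CPM in combination replicate 5.

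**Figure D4:**
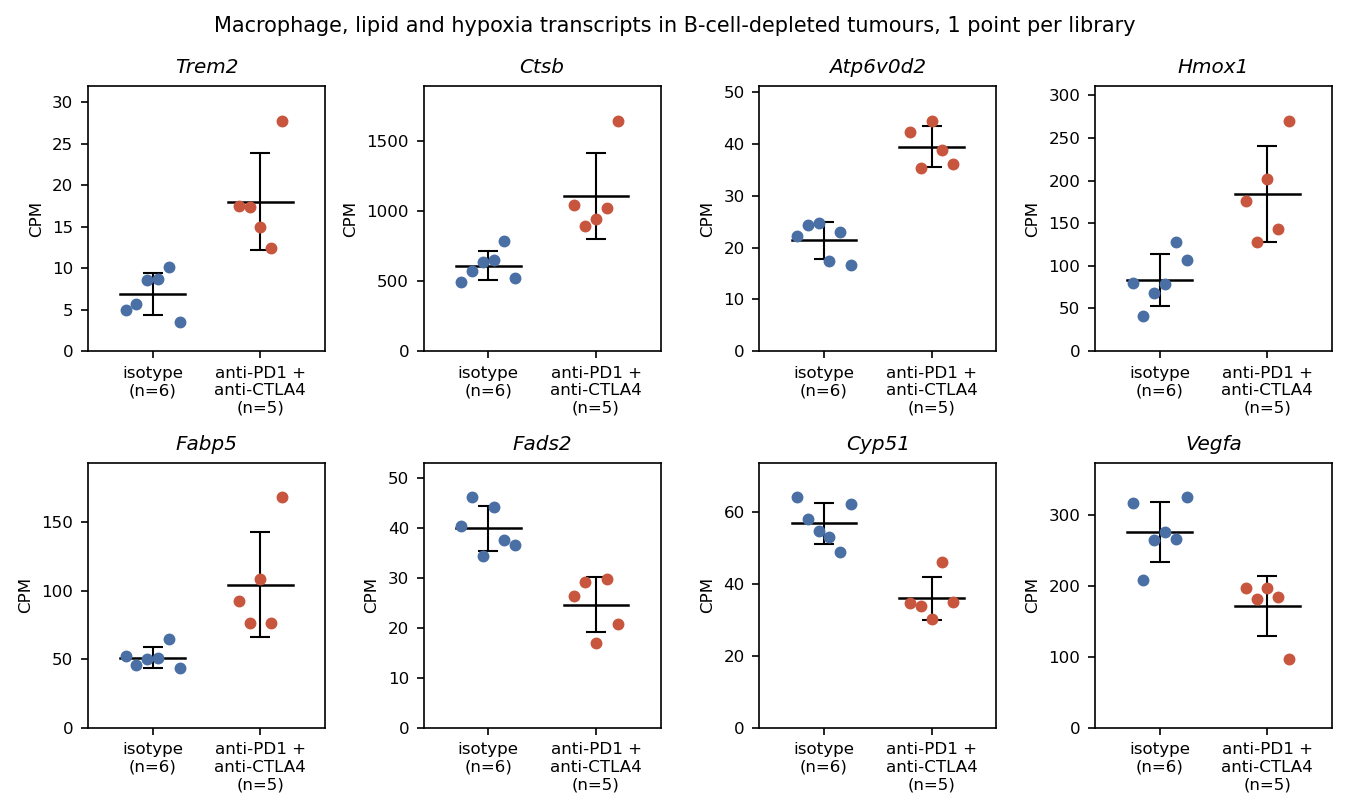
Each point is the CPM of a gene in 1 library, blue for isotype and red for the combination, with the arm mean as a line and the SD as a bar. Trem2, Ctsb, Atp6v0d2, Hmox1 and Fabp5 lie higher under the combination and Fads2, Cyp51 and Vegfa lower, without overlap of the arms; Cyp51 and Vegfa did not pass the test.

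Of the 7 genes called lower, 4 lie in a stretch of 60.6 kb on chromosome 1 inside the host gene of 2 microRNAs. MicroRNAs are short RNAs that bind messages by their seed, bases 2 to 8; miR-181 is known for tuning T-cell receptor signalling. The mature strands below, from RefSeq (GRCm38.p6), are shown because the stretch carries their hairpins, Mir181a-1 and Mir181b-1; capitals mark the seed.
mmu-miR-181a-5p: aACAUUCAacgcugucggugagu
mmu-miR-181b-5p: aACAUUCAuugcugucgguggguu
They lie at chr1:137966468-137966490 and chr1:137966650-137966673 on the plus strand. The seed ACAUUCA is held by 4 of 1679 mature mouse names in the table, all of the miR-181 family. Libraries of messenger RNA do not measure mature microRNAs, and neither hairpin gene had enough reads to be tested, so the values concern the surrounding transcripts only.

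Those transcripts lie within Gm4258 (chr1:137898595-138000384, plus strand, GRCm38), a noncoding gene of 101.8 kb. D130019J16Rik was at 17.1, 19.8, 20, 19.7 and 10.4 CPM under the combination and at 25.8, 36.7 and 45.2 CPM under isotype. No combination library reached the isotype range, and D130019J16Rik fell by 1.05 ± 0.20 on the log2 scale (edgeR adjusted p = 0.0228). Gm37298 was at 28.9, 22.8, 20.8, 21.9 and 11.5 CPM against 30.6, 43.4 and 56.9 CPM, a log2 fold change of -1.03 ± 0.21 (edgeR adjusted p = 0.0407). A130050O07Rik was at -0.98 ± 0.19 (edgeR adjusted p = 0.0321) and A430106G13Rik, which contains Mir181b-1, at -0.91 ± 0.18 (0.0348). Of 14 genes annotated in the host gene and its span, 9 were tested, all on the plus strand, and all 9 estimates were negative, from -0.80 to -1.05; Gm4258 itself was at -0.92 ± 0.23 (edgeR adjusted p = 0.0789). The 9 share a strand and a span, so they are not independent of each other. The genes were named after their values were seen. Each of the 4 calls was lost without isotype replicates 1, 2 or 6 or combination replicate 5 (edgeR adjusted p 0.0641 to 0.121), and some were lost without combination replicates 1 to 4 (0.0545 to 0.0816). All 4 were lost with the Y-linked covariate (edgeR adjusted p 0.069 to 0.134). Within the isotype arm, D130019J16Rik was higher in the libraries with more hepatocyte transcripts. Isotype replicates 1, 2 and 6 had 2434 to 2450 CPM of summed hepatocyte genes and 43.4 to 45.2 CPM of D130019J16Rik. Isotype replicates 3 to 5 had 1350 to 1682 and 25.8 to 29.9 CPM. Combination replicates 1 to 4 had 1534 to 1912 and 17.1 to 20 CPM, and combination replicate 5 had 667 and 10.4 CPM. Combination replicate 5 was the lowest in both, and the hepatocyte sums of combination replicates 1 to 4 overlapped those of isotype replicates 3 to 5. The part of the hepatocyte level in this result was not tested. In WT tumours the 4 log2 fold changes were -0.91 for D130019J16Rik, -1.04 for Gm37298, -1.09 for A130050O07Rik and -0.88 for A430106G13Rik. The differences between backgrounds did not pass for any of them (edgeR adjusted p 0.762 to 0.984).

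**Figure D5:**
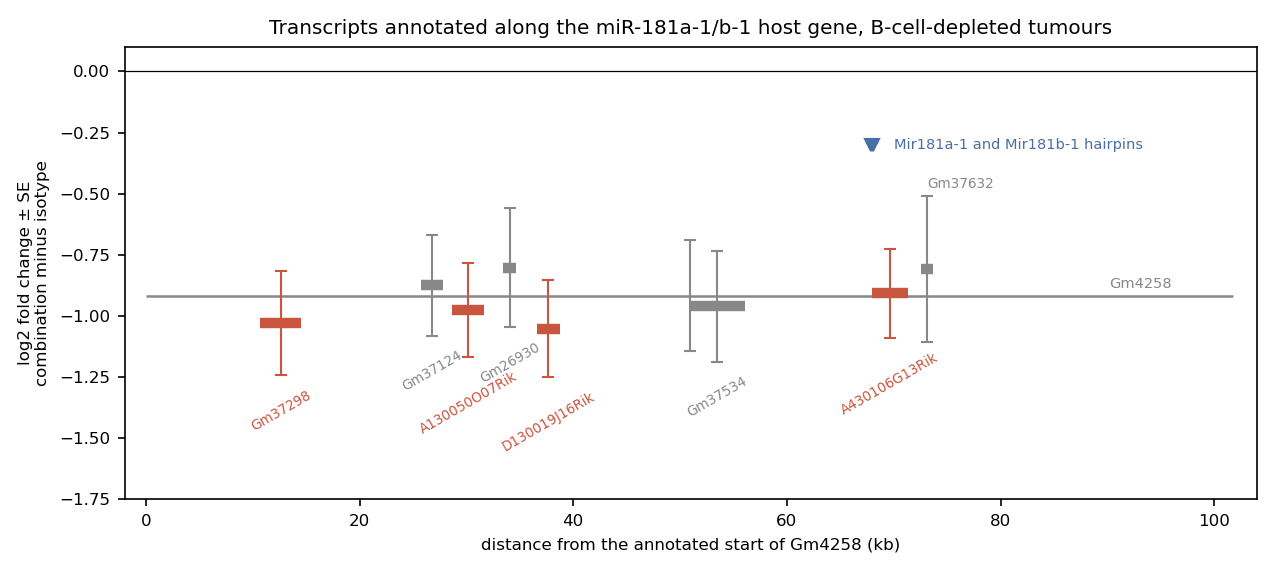
Log2 fold change ± SE of the 9 tested transcripts along the miR-181a-1/b-1 host gene, against the distance from its annotated start in kb; bars span each transcript, red where called, the thin line is the host gene Gm4258 with its SE at the midpoint, and the triangle marks the hairpins. All 9 lie between -0.80 and -1.05.

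The other calls in the lower direction were a long noncoding RNA, Gm28187 (chr1:101892958-101895091), a pseudogene within Lcorl, Gm29036, and Fads2, the delta-6 desaturase of polyunsaturated fatty acid synthesis. Gm28187 was at 7.88, 6.32, 8.71, 6.99 and 5.00 CPM under the combination and at 13.5, 15.9 and 23.8 CPM under isotype, and fell by 1.33 ± 0.24 on the log2 scale (edgeR adjusted p = 0.017). It was 1 of the 5 shared genes called in the fit of the 11 libraries alone, and it was lost without isotype replicate 1 (0.057), isotype replicate 2 (0.0541) or combination replicate 5 (0.0608). Fads2 was at 26.4, 29.1, 17.0, 29.8 and 20.8 CPM against 34.3, 38.9 and 46.1 CPM, with no overlap, and fell by 0.68 ± 0.13 (edgeR adjusted p = 0.0238). Its call was lost without isotype replicates 1, 2 or 4 or combination replicates 1 or 5 (0.0531 to 0.0883). Gm29036 was at -0.66 ± 0.13 (edgeR adjusted p = 0.0385) and was lost without isotype replicates 1, 2, 4 or 6 or combination replicates 2, 3 or 5 (0.0531 to 0.121).

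Fads2 was the only call among 18 fatty acid synthesis genes, whose median was 0.05. The cholesterol synthesis list had 19 negative estimates of 22, 0 calls and a median of -0.34, which ranged from -0.43 to -0.23 over all settings. Cyp51, lanosterol demethylase, was at 34.7, 33.9, 30.1, 46.0 and 35.0 CPM under the combination and at 49.0, 56.3 and 64.1 CPM under isotype. The arms did not overlap, and the log2 fold change was -0.64 ± 0.14 (edgeR adjusted p = 0.0562). Hmgcs1, which makes the substrate of HMG-CoA reductase, was at -0.38 ± 0.09 (edgeR adjusted p = 0.0627). The hypoxia and glycolysis list of 21 genes had a median of -0.17 and 0 calls. Vegfa, the vascular growth factor induced by low oxygen, gave -0.68 ± 0.22 (edgeR adjusted p = 0.175) and the stress gene Ndrg1 -0.69 ± 0.22 (0.164). With the Y-linked level as a covariate, the medians were -0.23 for cholesterol synthesis and 0.02 for hypoxia and glycolysis.

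The hepatocyte, oncofetal, cell cycle and fibroblast lists had 0 calls, and bulk tissue does not tell which cells made these transcripts. Alb, the serum albumin of liver cells, was at 1293, 946, 1143, 956 and 241 CPM under the combination and at 823, 1318 and 1662 CPM under isotype (-0.47 ± 0.52, edgeR adjusted p = 0.704). Combination replicate 5 was the lowest and the other 4 lay within the isotype range. Apob, the apolipoprotein of secreted lipid particles, gave -0.51 ± 0.33 (edgeR adjusted p = 0.49) and the oncofetal protein Afp -0.30 ± 0.59 (0.842). The 11 hepatocyte genes had a median of -0.29 and the 7 oncofetal genes one of -0.28, with 0 calls in each. With the Y-linked covariate these medians were 0.30 and 0.28, and Alb was at 0.26 (-0.23 without combination replicate 5). Mki67, a marker of dividing cells, was at 0.00 ± 0.16 (edgeR adjusted p = 0.996), and the 24 cell cycle genes had a median of 0.05 and 0 calls. Of 21 fibroblast and matrix genes, 19 had positive estimates and 0 were called; the median of 0.82 was 0.23 without combination replicate 5 and -0.17 with the Y-linked covariate. Postn, a matrix protein, was at 828 CPM in that library and at 117 to 320 CPM in the other 4 (1.27 ± 0.40, edgeR adjusted p = 0.164). Fn1, fibronectin, was at -0.51 ± 0.12 (edgeR adjusted p = 0.0673).

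Other cell types gave 0 calls as well. The list medians were 0.43 for 12 neutrophil genes (-1.19 without combination replicate 5), -0.22 for 14 dendritic cell genes, 0.66 for 9 Fc receptor genes and 0.25 for 14 endothelial genes. Without combination replicate 5 the last 2 lists had medians of 0.38 and 0.04, and with the Y-linked covariate 0.23 and -0.20. Fc receptor genes, which bind antibody on myeloid cells, summed to 331 to 615 CPM under isotype and 499 to 573 CPM in combination replicates 1 to 4, with 1063 CPM in combination replicate 5. Markers of other tissues gave a median of -2.23 for 16 skeletal muscle genes (-3.57 to -0.06 over all settings). For 8 adipocyte genes the median was 2.19 (-0.32 without combination replicate 4). Medians were -0.17 for 6 epidermal genes and -0.58 for 4 red blood cell genes (0.45 with the Y-linked covariate). Markers of RNA handling had medians of -0.07 for 10 mitochondrially encoded genes and 0.06 for 16 immediate early genes, and the 4 Y-linked genes one of 0.49.

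Some calls at low levels did not belong to any list. Rhof, a small GTPase, was at 8.82, 10.1, 9.45, 7.64 and 10.1 CPM against 3.60, 4.53 and 6.41 CPM (0.99 ± 0.16, edgeR adjusted p = 0.0134). Clgn, a chaperone best known from testis, was at 1.79, 1.77, 1.56, 1.30 and 1.07 CPM against 0.313, 0.498 and 0.577 CPM (1.69 ± 0.30, edgeR adjusted p = 0.0159). Ppp2r2c, a regulatory subunit of protein phosphatase 2A, was at 3.36, 3.39, 2.23, 2.27 and 2.78 CPM against 0.25, 0.706 and 1.37 CPM (1.92 ± 0.33, edgeR adjusted p = 0.0137). These 3 had arms that did not overlap and remained called without any single library. Lcn4, a lipocalin, did so too, at 0.539 to 0.945 CPM against 0.0522 to 0.237 CPM (edgeR adjusted p = 0.0137). In the fit of the 11 libraries alone Clgn was called (edgeR adjusted p = 0.0476), while Rhof (0.0626) and Ppp2r2c (0.126) were not. Lcn4 had too few reads to be tested in that fit. Among the 14 largest rises were also Wdr95 (1.91 ± 0.33; edgeR adjusted p = 0.0149, and 0.0541 without isotype replicate 2), Rgs8, a regulator of G-protein signalling (1.41 ± 0.30; 0.0407), and the transcription factor Gfi1 (1.38 ± 0.27; 0.0312). Both were lost without isotype replicates 1, 2 or 6 or combination replicates 1, 2 or 5 (0.0559 to 0.122), and Rgs8 also without combination replicates 3 or 4 (0.0773 and 0.0581). Rn7s2, a copy of the signal recognition particle RNA, was called (edgeR adjusted p = 0.0228) on 2 libraries only, with 181 and 164 CPM in combination replicates 3 and 4 and 1.22 to 5.62 CPM in the other 9; its call was lost without combination replicate 3 (0.0567) and without isotype replicates 1, 2, 4 or 6 (0.0539 to 0.0804).

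The response was set beside that of the WT tumours, where the same antibodies changed 9529 genes (50% of those tested, edgeR). Of the 65 genes called in the depleted tumours, 63 were called in the same direction in WT tumours, and 47 had the larger absolute change there; since the 65 were chosen by their change in the depleted tumours, this is a description. The test of the difference between the 2 responses called 5 genes of 19061 (0.0262%), 1 of them among the 65. Atp6v0d2 rose by 0.90 in the depleted and by 2.15 in the WT tumours, a difference of -1.25 ± 0.22 (edgeR adjusted p = 0.0484). Hopx, a homeodomain cofactor of effector T cells and other cells, was at 6.62, 6.78, 4.76, 5.52 and 5.64 CPM under the combination and at 4.70, 5.48 and 6.93 CPM under isotype in depleted tumours, a log2 fold change of 0.06 ± 0.14, against 1.42 ± 0.15 in WT (difference -1.36 ± 0.20, edgeR adjusted p = 0.0241). The count of 5 was 0 without isotype replicates 2 or 5, without combination replicate 4 or with the Y-linked covariate, 1 without isotype replicate 3 or combination replicate 2, 3 without combination replicate 1, 8 without isotype replicate 1 and 1382 without combination replicate 5. For Prf1 the difference was -0.22 ± 0.28 (edgeR adjusted p = 0.632), for Gzmb -0.83 ± 0.33 (0.14), for Cd8a -0.53 ± 0.34 (0.327) and for Pdcd1 -0.40 ± 0.34 (0.451), none past the threshold.

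The depleted tumours did not separate by arm on the main axis of their variation. In a principal component decomposition of 2000 variable genes, 33.2% of the variance fell on the first axis and 20.2% on the second. On the first, isotype replicates ran from -43.2 to 18.3 and combination replicates from -27.5 to 50.6, so the arms overlapped; replicate 5 of the combination had the highest score on both (50.6 and 42.1). Genes of the largest weight on the positive side of the first axis were Jchain, Ighg1, Igha, Igkc, Mfap4 and H19, of antibody-secreting cells, matrix and an imprinted RNA. On the negative side they included Mug2, Pzp, Ambp, Afm and A1cf, genes of liver cells.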

How the data were processed

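The deposited table gives unnormalized counts of 55487 Ensembl genes in 21 libraries, judged by whole numbers and unequal totals. The submitters' processing notes name STAR 2.7.2a, cutadapt 2.4 and GRCm38; for the counting program, annotation release and strand setting, each was not given in the sources used here, so reads of overlapping and antisense genes cannot be told apart. Symbols for 55141 identifiers came from GENCODE M21. The test was that of edgeR 4.0.16 in R 4.3.3 (filterByExpr, TMM, robust quasi-likelihood, 1 model of 4 groups) and Benjamini-Hochberg adjustment over 19061 genes; a call is an adjusted p under 0.05. The fit was tested on simulated counts for 18842 genes, where it recovered 68% of 100 genes changed by 1 log2 unit and 96% of 100 changed by 2, with 9 false calls. The changed genes were drawn from those at a mean of at least 1 CPM, so these shares do not cover lower genes. The counts used edgeR's own estimates of spread and otherwise the same mean in all groups, without a WT response or libraries that stand apart. CPM is relative to the library total, with no scaling factor. Within arms, no pair of libraries agreed within sampling noise (chi-square per degree of freedom of at least 6.99). The alternatives were DESeq2 1.42.0, limma 3.58.1 voom, DESeq2 size factors, no filter, the 2 groups alone, a Y-linked covariate, replicate blocks, thinning and leaving out libraries. The comparison, the 33 gene lists, the naming rule and most alternatives were chosen with earlier results of these data known. The rule named the 14 largest rises and 8 largest falls called at a mean of at least 1 CPM outside predicted genes and receptor segments, up to 4 called or 2 other members of each list, 21 fixed genes, and 6 genes on each side of the first principal component. Other genes in the text (among them Rab27a, Themis, Rhof, Clgn, Lcn4, Hmox1, Arg1, receptor segments, predicted genes and Riken clones) were chosen after their values were seen; 3 genes that the rule names are not reported here. No p-value was adjusted over a list alone and no list was tested as a set.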

Additional observations from a re-analysis of the deposited data

Results flagged for a closer look

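A library was marked where its gap to the nearest of its arm took an unusually large share of the arm's range; chance marks about 1 in 20 groups, and 26 of 218 groups were marked, 15 of them for combination replicate 5. In that library the summed lists were 858 CPM for cytotoxic effectors, 3520 CPM for chemokines, 4156 CPM for macrophages, 1213 CPM for neutrophils, 397 CPM for plasma cells and immunoglobulins, 1063 CPM for Fc receptors, 37681 CPM for fibroblasts and matrix, 1122 CPM for immediate early genes and 169 CPM for Y-linked genes. It was also the highest for Ctsb (1645 CPM), Postn (828 CPM), Ms4a1 (1.57 CPM), Cd79a (0.428 CPM) and Iglc1 (0.0714 CPM), and the lowest for Vegfa (96 CPM, the nearest being 181 CPM). For Cd79a and Iglc1 all other combination libraries were at 0 CPM, so any read was enough for the mark. Combination replicate 4 was the highest for summed adipocyte genes (807 CPM), the fat-droplet coat gene Plin1 (39.5 CPM), the liver enzyme Cyp2e1 (51.1 CPM), Ido1 (99.0 CPM) and Hmgcs1 (97.8 CPM). Combination replicate 3 was the lowest for Cd8b1 (15.7 CPM) and combination replicate 1 the highest for summed skeletal muscle genes (76.1 CPM). Under isotype, replicate 3 was the highest for Igkc (77.5 CPM) and the muscle myosin Myh4 (61.8 CPM), replicate 5 for Iglc1 (68.9 CPM), and replicate 6 for Cyp2e1 (1.46 CPM). The antibody responses of depleted and WT tumours differed by the interaction test for Hopx (-1.36, edgeR adjusted p = 0.0241) and Atp6v0d2 (-1.25, edgeR adjusted p = 0.0484).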

How the results depend on the processing

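The 65 calls became 388 with DESeq2, 102 with limma voom, 35 with no filter, 6 with the 2 groups alone, 30 with the Y-linked covariate, 397 without the 3 depleted libraries of high B-cell or immunoglobulin transcripts, 117 without the 3 libraries holding muscle or adipocyte transcripts (chosen after seeing the data), and 11 to 176 when 1 library was left out. Of the 65, 63 were still called with DESeq2, 25 with the Y-linked covariate and 11 in all 11 fits that left out a library; no sign reversed. The 5 calls of the difference between responses became 1181 with DESeq2, 0 with the Y-linked covariate, 1 after thinning, 1 without the 3 libraries of high B-cell or immunoglobulin transcripts, 0 without the 3 holding muscle or adipocyte transcripts, and 0 to 1382 when 1 library was left out. In simulated counts DESeq2 made 29 false calls and edgeR 9. Those counts were drawn with edgeR's estimates of spread, so they cannot rank the tools on the real data. The causes of these changes in the calls were not tested. With a replicate block the 65 became 33 by title number and 14 by description number, and the 5 became 0 by title number; same-numbered libraries correlated at -0.264 to 0.305, so the numbers gave no sign of pairing. The difference in total counts was -4.66 to -2.89 M when 1 library was left out, past 0.05 only without isotype replicate 3 or combination replicate 5. Depth limits genes near 1 CPM.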
